A study of Homo sapiens with 2 samples.

Results

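The genes described here are the receptors and ligands of the ephrin, semaphorin, Slit and netrin guidance systems, as they were expressed in MHCC97H and MHCC97L, which are long-established cell lines from a human liver cancer (hepatocellular carcinoma). They were chosen by gene symbol among the protein-coding genes of the deposited table: EPHA, EPHB, EFNA, EFNB, SEMA3 to SEMA7, PLXN, NRP, ROBO, SLIT, NTN and UNC5 members, with DSCAM and DSCAML1. The rule gave 70 genes of 44591 in the table, 35 receptors and 35 ligands. The submitters describe MHCC97H as having high and MHCC97L as having low spontaneous metastatic potential. Both lines were wild type, were grown in the same serum-containing medium without any treatment, and were represented by 1 poly(A)-selected RNA-seq library each. The series title gives its aim as finding RNA-binding protein genes related to metastasis.

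Guidance proteins were first studied as signals that steer growing axons, and the same families control cell repulsion, adhesion, vessel growth and epithelial boundaries elsewhere. Eph receptors are receptor tyrosine kinases that bind ephrins on the surface of neighbouring cells, and both partners can signal into their own cell. Semaphorins act through plexins, with neuropilins as co-receptors for the secreted class 3 members, while Slits bind Robo receptors and netrins bind DCC, neogenin, UNC5 and DSCAM receptors. In liver and its tumours Eph and semaphorin genes are known from vessels, bile ducts and tumour cells.

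The MHCC97H library held 28967153 counted reads and the MHCC97L library 24964246, of which 72858 reads (0.252%) in MHCC97H and 76050 reads (0.305%) in MHCC97L fell on the 70 genes. Genes with at least 1 count per 1000000 (CPM) in at least 1 library are called kept genes here. A count of 0 allowed a level of up to 0.104 CPM of total counts in MHCC97H and 0.120 CPM in MHCC97L. Of the 13 hepatocyte and liver cancer genes listed as markers, 10 were kept, with KRT8 at 8075 CPM in MHCC97H and 9060 CPM in MHCC97L, and HNF4A at 80.8 CPM in MHCC97H and 96.6 CPM in MHCC97L. The albumin gene ALB was low, at 1.85 CPM in MHCC97H and 5.57 CPM in MHCC97L, and APOA1 had 4 reads in each library. Of 12 neural markers 5 were kept, and all 12 summed to 86.0 CPM in MHCC97H and 88.1 CPM in MHCC97L. The kept ones were TUBB3 (45.3 CPM in MHCC97H and 45.6 CPM in MHCC97L), MBP (31.5 CPM in MHCC97H and 28.2 CPM in MHCC97L), GFAP, SYP and MAP2. GFAP had 5.11 CPM in MHCC97H and 8.25 CPM in MHCC97L, and SYP and MAP2 had less. STMN2, GAP43, OLIG2 and ELAVL4 had 0 reads in both libraries. Endothelial markers (1 of 8 kept, ESAM) summed to 92.5 CPM in MHCC97H and 77.1 CPM in MHCC97L, fibroblast markers (5 of 8 kept) to 30.0 CPM in MHCC97H and 41.8 CPM in MHCC97L, and leukocyte markers (4 of 7 kept) to 16.7 CPM in MHCC97H and 13.8 CPM in MHCC97L. CDH5 had 2 reads in MHCC97H and 1 in MHCC97L. The kept leukocyte markers were CD68 (7.58 CPM in MHCC97H and 6.29 CPM in MHCC97L), CD14 (4.75 CPM in MHCC97H and 3.53 CPM in MHCC97L), ITGAM and CSF1R, while CD3E was at 0 reads in both libraries. The part of such cells in the results was not tested. Without replicates there is no test, every difference is one between these 2 libraries, and intervals cover counting error only. They may be too narrow even for that, because reads copied by PCR without molecular identifiers do not each stand for a molecule. Fewer cells expressing a gene and less RNA per cell cannot be told apart in such bulk libraries.

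EFNB2, the transmembrane ligand ephrin-B2, and EPHB4, its receptor on veins and many epithelia, lay on opposite sides of equality between the libraries. SEMA3C and SEMA3E, secreted semaphorins that lie near each other on chromosome 7, were both higher in MHCC97H. The 250 bases before each start that RefSeq gives for these 4 genes (GRCh38.p14) are printed so that their base composition can be compared, 5′ to 3′ on the minus strand, where all 4 genes lie. Capitals mark every match, on either strand, to a GC box (GGGCGG), an E-box (CACGTG) or a TATA box (TATAAA), motifs that do not overlap one another here.
EFNB2, chr13:106535663-106535912: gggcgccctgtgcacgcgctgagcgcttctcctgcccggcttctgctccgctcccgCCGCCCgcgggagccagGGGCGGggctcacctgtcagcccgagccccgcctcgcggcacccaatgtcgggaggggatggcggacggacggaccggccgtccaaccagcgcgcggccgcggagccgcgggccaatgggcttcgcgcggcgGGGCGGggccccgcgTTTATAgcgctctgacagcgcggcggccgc
EPHB4, chr7:100827524-100827773: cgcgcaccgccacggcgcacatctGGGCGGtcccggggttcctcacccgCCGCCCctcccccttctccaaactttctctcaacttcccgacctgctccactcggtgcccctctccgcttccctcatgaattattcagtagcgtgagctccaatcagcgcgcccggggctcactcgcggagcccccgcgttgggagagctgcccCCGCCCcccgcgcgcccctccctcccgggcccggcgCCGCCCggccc
SEMA3C upstream start, chr7:80922390-80922639: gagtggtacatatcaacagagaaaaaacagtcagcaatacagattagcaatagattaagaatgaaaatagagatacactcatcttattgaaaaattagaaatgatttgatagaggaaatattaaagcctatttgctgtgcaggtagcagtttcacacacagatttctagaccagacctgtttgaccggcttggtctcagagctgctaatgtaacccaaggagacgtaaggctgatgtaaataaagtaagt
SEMA3C downstream start, chr7:80919052-80919301: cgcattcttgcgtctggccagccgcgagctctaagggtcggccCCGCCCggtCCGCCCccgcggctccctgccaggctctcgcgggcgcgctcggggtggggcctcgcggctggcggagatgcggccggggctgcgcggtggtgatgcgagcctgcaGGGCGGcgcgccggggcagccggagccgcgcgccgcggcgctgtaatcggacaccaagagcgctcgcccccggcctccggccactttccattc
SEMA3E upstream start, chr7:83649140-83649389: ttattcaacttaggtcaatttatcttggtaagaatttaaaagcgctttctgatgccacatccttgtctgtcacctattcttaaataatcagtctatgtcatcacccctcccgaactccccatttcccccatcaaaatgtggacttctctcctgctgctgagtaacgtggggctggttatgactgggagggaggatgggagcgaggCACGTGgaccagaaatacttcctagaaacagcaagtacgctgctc
SEMA3E downstream start, chr7:83641432-83641681: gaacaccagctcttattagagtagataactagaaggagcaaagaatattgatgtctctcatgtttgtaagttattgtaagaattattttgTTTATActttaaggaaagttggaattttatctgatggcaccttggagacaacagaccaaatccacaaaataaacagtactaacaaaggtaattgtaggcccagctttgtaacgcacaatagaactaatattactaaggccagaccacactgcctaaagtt

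The EFNB2 window was 78.4% G or C with 40 CG dinucleotides, 3 GC boxes and 1 TATA box, and the EPHB4 window 72.8% with 29 CG dinucleotides, 4 GC boxes and no other match. The downstream SEMA3C start was of the same kind, at 77.6% with 39 CG dinucleotides and 3 GC boxes. Its upstream start was A- and T-rich, at 36.4% with 2 CG dinucleotides and none of the motifs. SEMA3E had no GC box at either start: the upstream window was 46.4% G or C and held 1 E-box, and the downstream window was 34.8% and held 1 TATA box. Over 34943 RefSeq windows of this length the median was 58.0% G or C with 11 CG dinucleotides, 42.5% held a GC box, 6.32% an E-box and 10.8% a TATA box. Of the 70 genes 59 had a window in the table. The counts do not show which start was used, and a match is a string of letters, not a binding site.

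Levels are compared between genes as RPKM, which is CPM divided by the median GENCODE transcript length in kilobases. Of the 70 genes, 44 were kept, 20 receptors and 24 ligands. EPHB4 had the highest level of all, at 172.0 RPKM in MHCC97H and 322.7 RPKM in MHCC97L. It took 27.5% of all reads on the 70 genes in MHCC97H (95% exact interval 27.2 to 27.8) and 37.8% in MHCC97L (37.5 to 38.2). PLXNB2, a plexin that binds class 4 semaphorins, stood at 55.5 RPKM in MHCC97H, where it came next, and at 58.5 RPKM in MHCC97L. EPHA1 stood at 35.7 RPKM in MHCC97H and 37.6 RPKM in MHCC97L, and EPHA2, the ephrin-A1 receptor often abundant in carcinomas, at 30.3 RPKM in MHCC97H and 38.6 RPKM in MHCC97L. SEMA4B, a transmembrane semaphorin, led the ligands in MHCC97H (36.7 RPKM, against 48.2 RPKM in MHCC97L). EFNA1, the GPI-anchored ephrin-A1, stood at 34.3 RPKM in MHCC97H and 61.9 RPKM in MHCC97L, where it led the ligands, and EFNB1, ephrin-B1, followed at 34.3 RPKM in MHCC97H and 36.4 RPKM in MHCC97L. EFNA1 took place 5 among all 70 genes in MHCC97H and place 2 in MHCC97L, and place 7 in MHCC97H when the longest transcript or the union of exons gave the length. Its own level was then 30.0 RPKM in MHCC97H, below EFNB1 and EPHA2. The order of levels was otherwise much alike in the 2 libraries (Spearman correlation 0.943 across the 44 kept genes, which share both libraries).

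**Figure D1:**
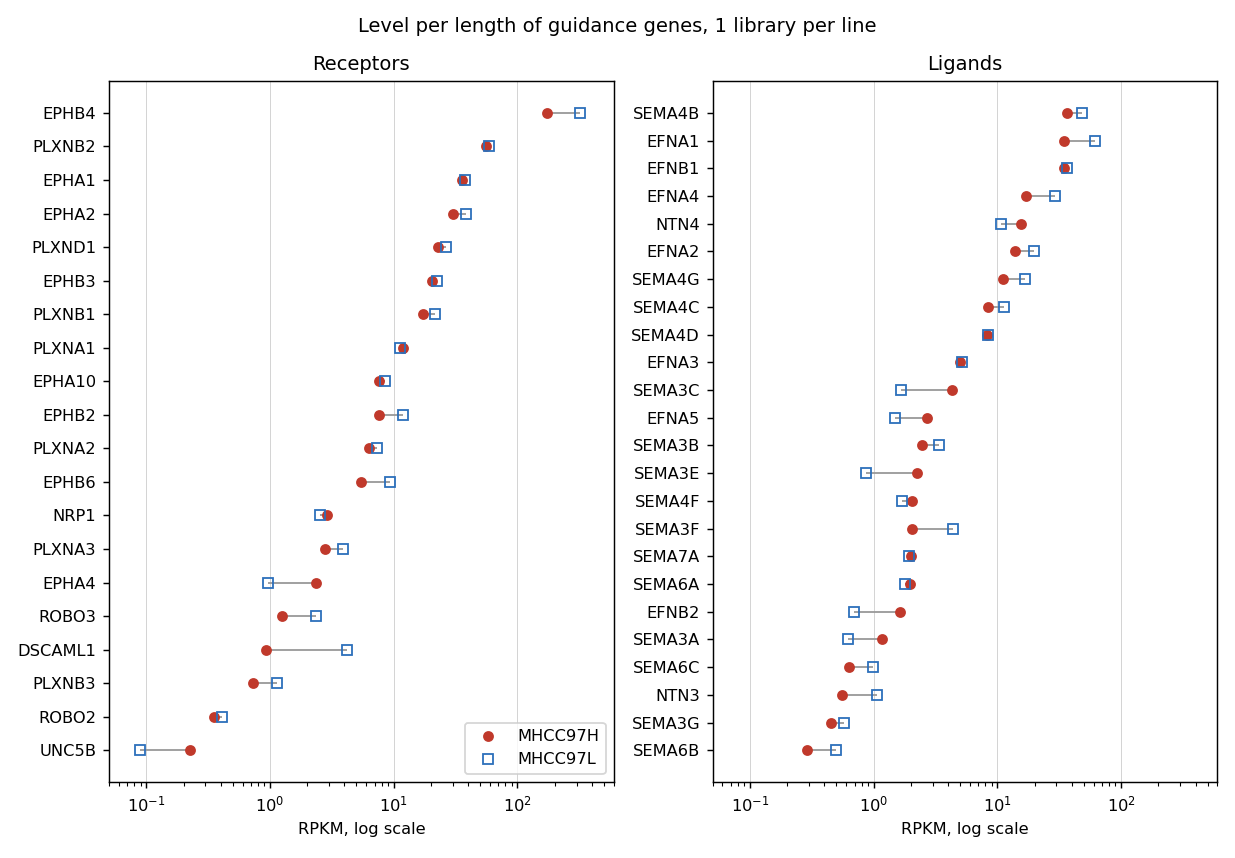
Level per length (RPKM, log axis) of the 20 kept receptors and 24 kept ligands, with 1 point for the MHCC97H library and 1 square for the MHCC97L library per gene and a line joining them. EPHB4 stands apart at 172.0 RPKM in MHCC97H and 322.7 RPKM in MHCC97L, and DSCAML1, SEMA3C and SEMA3E have some of the longest lines.

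The other 26 genes stayed below 1 CPM in both libraries. All 3 Slit genes were among them: SLIT1 had 25 reads in MHCC97H and 17 in MHCC97L, SLIT2 3 in MHCC97H and 0 in MHCC97L, and SLIT3 4 in MHCC97H and 1 in MHCC97L. EPHA3, EPHA7, DSCAM, UNC5C and SEMA5B had 0 reads in both libraries. EPHA5, EPHA6, EPHA8 and EPHB1, Eph receptors known mostly from the nervous system, had at most 3 reads in either library. ROBO1, the main Slit receptor in many epithelia, had 8 reads in MHCC97H and 21 in MHCC97L, a log2 ratio of -1.71 (95% counting interval -3.16 to -0.55) that the filter kept out of the counts below. NRP2, the neuropilin that binds SEMA3F, had 13 reads in MHCC97H and 6 in MHCC97L, too few to separate the libraries (log2 ratio 0.69, interval -0.77 to 2.41). UNC5D, with 0 reads in MHCC97H and 4 in MHCC97L, was at the limit of detection. The remaining 11 genes, among them NTN1 (8 reads in MHCC97H and 2 in MHCC97L), SEMA4A (6 in MHCC97H and 10 in MHCC97L) and PLXNA4 (11 in MHCC97H and 19 in MHCC97L), had at most 11 reads in MHCC97H and 19 in MHCC97L. Thus ligand and receptor were both kept for the ephrin, semaphorin and netrin systems. Of the Slit system ROBO2 and ROBO3 were kept without a ligand. The only kept netrin receptor of the chosen families was UNC5B, which passed the filter only through MHCC97H (46 reads, against 14 in MHCC97L). Of the netrin receptors outside these families, DCC had 0 reads in both libraries. The neogenin gene NEO1 had 44.8 CPM in MHCC97H and 43.7 CPM in MHCC97L.

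A gene met the size rule when its log2 ratio of MHCC97H over MHCC97L was at least 1 in size and the 95% counting interval excluded equal expression. Of the 44 kept genes, 5 met it on the higher side (11.4%), namely SEMA3C, SEMA3E, EFNB2, EPHA4 and UNC5B. The share among all 14578 kept genes of the table was 7.06%. On the lower side 2 met it, DSCAML1 and SEMA3F, which is 4.55%, against 4.65% of all kept genes. Among the 12371 kept genes that are protein-coding, as all members are, 7.18% were higher and 3.30% lower. Counts this small do not set the genes apart from the background. If a coefficient of variation of 0.4 between replicates is assumed, none of the 5 higher genes and, on the lower side, only DSCAML1 meets the rule. At a 1.5-fold threshold 7 were higher, where 19.3% of all kept genes were, and 11 were lower, where 13.8% were. Of the receptors 2 were higher, 1 was lower and 17 did not meet the rule, and of the ligands 3 were higher, 1 was lower and 20 did not. The median log2 ratio of the 44 genes was -0.21, against 0.03 over all kept genes, and 31 of 44 ratios were negative (70.5%, against 48.6% of all kept genes and 46.1% of the protein-coding ones). Scaling by total counts in place of the trimmed mean of M-values (TMM) moved every log2 ratio by 0.17, so that 25 of 44 were negative, and gave EPHA1, EPHB3, PLXNB2, EFNA3, EFNB1 and SEMA4D the opposite sign.

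**Figure D2:**
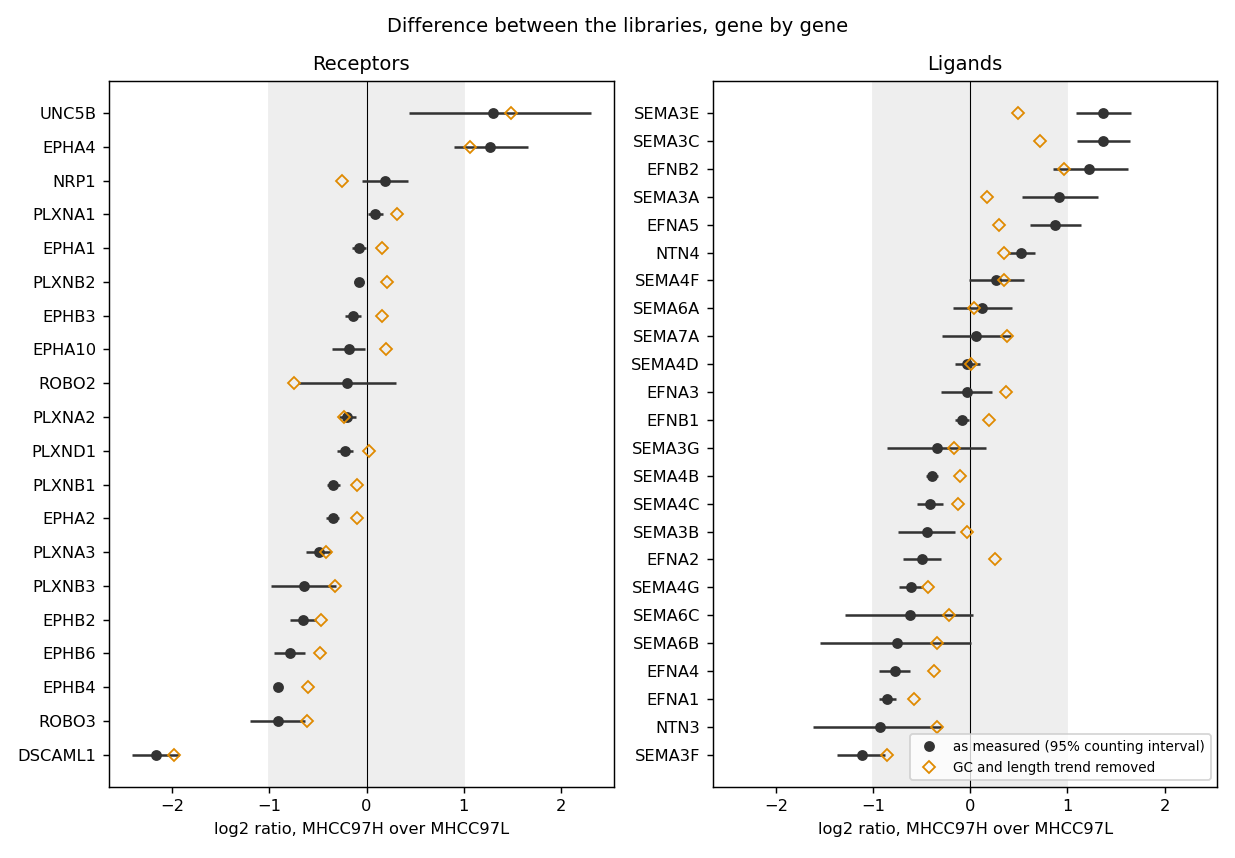
Log2 ratio of MHCC97H over MHCC97L for the 20 kept receptors (left) and 24 kept ligands (right), as measured with 95% counting intervals (filled points) and after removal of the trend with GC content and length (open diamonds); the grey band spans ratios within 2-fold. As measured, UNC5B, EPHA4, SEMA3E, SEMA3C and EFNB2 lie right of the band and DSCAML1 and SEMA3F left of it, while only UNC5B, EPHA4 and DSCAML1 have diamonds outside it.

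These shares need to be read beside base composition. In this pair of libraries the log2 ratio fell with the GC content of the transcript (Spearman correlation -0.64 across 13854 kept genes with a value, and -0.59 across the 44 genes described here). Guidance transcripts were G- and C-rich: their median was 59.8%, against 50.6% over all kept genes, and 35 of 44 lay at or above that middle. Those 35 had a median log2 ratio of -0.39, and the 9 below it had a median of 0.92. After the trend with GC content and length was removed, 23 of 44 ratios were negative (52.3%, against 50.2% of all genes), and the median was -0.06. EPHA4 and UNC5B then met the rule on the higher side, where 2.42% of all genes did, and DSCAML1 on the lower side, where 3.49% did. UNC5B had passed the 1 CPM filter only through MHCC97H, so its entry among the kept genes depended on the library where it is high.

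**Figure D3:**
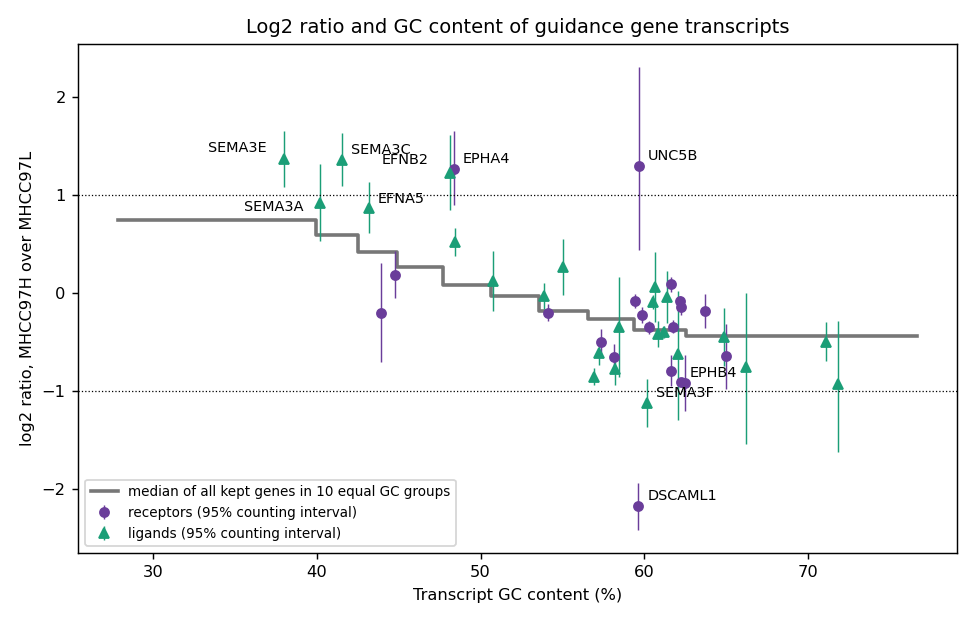
Log2 ratio of MHCC97H over MHCC97L against transcript GC content for the kept receptors (circles) and ligands (triangles) with 95% counting intervals, and the median of all kept genes in 10 equal GC groups (grey line). SEMA3E, SEMA3A, SEMA3C and EFNA5 lie at the A- and T-rich end, where the grey line is highest, while UNC5B and DSCAML1 lie near 60% on opposite sides of it.

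Among the 8 kept Eph receptors 7 log2 ratios were negative as measured. Without the trend 4 were positive and 4 negative, with a median of 0.03, and EPHA1 (0.16), EPHA10 (0.20) and EPHB3 (0.16) had the opposite sign. Together the 14 genes had 1053 CPM in MHCC97H and 1699 CPM in MHCC97L. EPHB4 had 20040 reads in MHCC97H and 28757 in MHCC97L, or 651.8 CPM in MHCC97H and 1223 CPM in MHCC97L. The log2 ratio was -0.91 (95% counting interval -0.93 to -0.88). EPHB4 fell short of the 2-fold rule, but it accounted for most of the difference in CPM over all 35 receptors of every family. These summed to 1778 CPM in MHCC97H and 2530 CPM in MHCC97L, and the 34 without EPHB4 to 1126 CPM in MHCC97H and 1308 CPM in MHCC97L. With the trend removed EPHB4 stood at -0.60. EPHB2, a receptor that keeps crypt cells in place in the intestine, had 27.7 CPM in MHCC97H and 43.6 CPM in MHCC97L (-0.65, interval -0.79 to -0.52). EPHB6, which lacks kinase activity, had 18.5 CPM in MHCC97H and 32.1 CPM in MHCC97L (-0.79, interval -0.95 to -0.63). EPHB3 differed little (86.8 CPM in MHCC97H and 95.4 CPM in MHCC97L, log2 ratio -0.14, interval -0.22 to -0.05), and its sign depended on the scaling and on the trend. All 4 kept EphB genes thus had negative ratios under TMM, none of them past 2-fold.

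The EphA receptors did not move as a block. EPHA4, a receptor that binds both ephrin classes, had 250 reads in MHCC97H and 79 in MHCC97L, or 8.13 CPM in MHCC97H and 3.36 CPM in MHCC97L. It was 2.41-fold higher in MHCC97H (95% counting interval 1.87 to 3.16). The log2 ratio was 1.27 as measured and 1.06 (0.70 to 1.45) with the trend removed, so it met the rule with and without the trend. Of the 990 kept genes within 1 percentage point of its GC content, 3.74% met the rule on the higher side as measured. An antisense gene shares 3.66% of its exon bases and had 22 reads of its own in MHCC97H and 10 in MHCC97L. EPHA2 had 120.3 CPM in MHCC97H and 152.8 CPM in MHCC97L (-0.35, interval -0.41 to -0.28), and EPHA10, which is thought to lack kinase activity, 19.7 CPM in MHCC97H and 22.4 CPM in MHCC97L (-0.18, interval -0.35 to -0.01). EPHA1 was nearly level, at 120.0 CPM in MHCC97H and 126.5 CPM in MHCC97L (-0.08, interval -0.15 to -0.01).

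Of the 7 kept ephrins EFNB2 alone met the rule, with EFNA5 and EFNA1 just short of it on opposite sides. EFNB2 had 236 reads in MHCC97H and 77 in MHCC97L, or 7.68 CPM in MHCC97H and 3.27 CPM in MHCC97L, a 2.34-fold difference (95% counting interval 1.81 to 3.07). Its log2 ratio of 1.22 became 1.07 with the GC trend removed and 0.97 with the length trend removed too, just inside the rule and then just outside it. An antisense gene overlaps 26.0% of its exon bases, and since no strand setting is given its reads cannot be told apart from those of EFNB2. EFNA5, a GPI-anchored ligand of several EphA receptors, had 409 reads in MHCC97H and 171 in MHCC97L, or 13.3 CPM in MHCC97H and 7.27 CPM in MHCC97L (log2 ratio 0.87, interval 0.61 to 1.14), and stood at 0.30 with the trend removed. On the other side EFNA1 had 57.9 CPM in MHCC97H and 104.4 CPM in MHCC97L (-0.85, interval -0.94 to -0.76, and -0.58 with the trend removed). EFNA4, in the same run of genes on chromosome 1, had 18.8 CPM in MHCC97H and 32.1 CPM in MHCC97L (-0.78, interval -0.94 to -0.62, and -0.37 with the trend removed). EFNA3, which lies between them, had 8.91 CPM in MHCC97H and 9.14 CPM in MHCC97L (-0.04, interval -0.30 to 0.23), and stood at 0.36 with the trend removed. A read-through gene shares 47.9% of the exon bases of EFNA3 and a smaller part of those of EFNA4, so both counts are uncertain. All 6 other kept genes around this trio had negative ratios as measured, where 75.2% of all kept genes in their GC range did, and 5 of 6 had with the trend removed. EFNA2 had 13.2 CPM in MHCC97H and 18.7 CPM in MHCC97L (-0.50), a value that turned to 0.25 with the trend removed, and EFNB1 was nearly level (113.5 CPM in MHCC97H and 120.6 CPM in MHCC97L, -0.09).

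Plexins, the signalling receptors of the semaphorins, ran in log2 ratio from -0.65 for PLXNB3 to 0.09 for PLXNA1, and none of the 7 kept genes met the rule. Of the 7, 6 were negative as measured, and 4 were with the trend removed. PLXNB3 shares 19.6% of its exon bases with SRPK3 on the same strand, so its count is uncertain. PLXNB2 had 8338 reads in MHCC97H and 6730 in MHCC97L, or 271.2 CPM in MHCC97H and 286.1 CPM in MHCC97L (-0.08, interval -0.12 to -0.03). PLXNB1, the SEMA4D receptor, had 122.6 CPM in MHCC97H and 155.3 CPM in MHCC97L (-0.34), and PLXND1, through which SEMA3E signals without a neuropilin, 87.0 CPM in MHCC97H and 101.2 CPM in MHCC97L (-0.22). PLXNA1, a signalling partner of neuropilins, had 107.6 CPM in MHCC97H and 101.0 CPM in MHCC97L (0.09). Its relatives PLXNA2, with 72.6 CPM in MHCC97H and 83.2 CPM in MHCC97L (-0.20), and PLXNA3, with 30.3 CPM in MHCC97H and 42.7 CPM in MHCC97L (-0.49), lay below equality. NRP1, the neuropilin that SEMA3A and VEGF bind, had 11.9 CPM in MHCC97H and 10.4 CPM in MHCC97L, with an interval that included equality (0.19, -0.05 to 0.43).

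Semaphorins are grouped in classes by how they are held or secreted. The 9 kept members of classes 4 to 7, which are held in the membrane by a transmembrane segment or a GPI anchor, had log2 ratios from -0.75 for SEMA6B to 0.26 for SEMA4F with a median of -0.39 (-0.11 with the trend removed), and none met the rule. The intervals of SEMA6B (-1.54 to 0.005) and SEMA4F (-0.02 to 0.55) included equality. SEMA6B, with 27 reads in MHCC97H and 35 in MHCC97L, had passed the 1 CPM filter only through MHCC97L, the library where it is higher. SEMA4B had 139.2 CPM in MHCC97H and 182.7 CPM in MHCC97L (-0.39), SEMA4C 29.9 CPM in MHCC97H and 39.8 CPM in MHCC97L (-0.41) and SEMA4G 34.6 CPM in MHCC97H and 52.8 CPM in MHCC97L (-0.61). SEMA4D, known for its roles in lymphocytes and in vessel growth, was nearly level at 35.7 CPM in MHCC97H and 36.4 CPM in MHCC97L (-0.03, interval -0.16 to 0.10). SEMA4G shares 16.8% of its exon bases with MRPL43 on the opposite strand, so its count is uncertain.

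Of the 6 kept secreted class 3 semaphorins 2 met the rule on the higher side and 1 on the lower. Among all kept genes 7.06% and 4.65% did, and counts as small as 2 and 1 do not set the class apart. SEMA3C had 502 reads in MHCC97H and 149 in MHCC97L, or 16.3 CPM in MHCC97H and 6.34 CPM in MHCC97L, a 2.57-fold difference (95% counting interval 2.14 to 3.12). SEMA3E had 449 reads in MHCC97H and 133 in MHCC97L, or 14.6 CPM in MHCC97H and 5.65 CPM in MHCC97L, a 2.58-fold difference (2.12 to 3.16). SEMA3A, the classical growth cone collapsing factor, had 193 reads in MHCC97H and 78 in MHCC97L, or 6.28 CPM in MHCC97H and 3.32 CPM in MHCC97L, just outside the rule at a log2 ratio of 0.92 (interval 0.53 to 1.32). SEMA3F, which signals through NRP2, was lower in MHCC97H, with 221 reads in MHCC97H and 367 in MHCC97L, or 7.19 CPM in MHCC97H and 15.6 CPM in MHCC97L (log2 ratio -1.12, interval -1.37 to -0.87). SEMA3B, a few genes away on chromosome 3, had 6.24 CPM in MHCC97H and 8.50 CPM in MHCC97L (-0.44, interval -0.74 to -0.15). SEMA3G had 68 reads in MHCC97H and 66 in MHCC97L, with an interval that included equality (-0.34, -0.85 to 0.17). With the trend removed SEMA3C stood at 0.72, SEMA3E at 0.49, SEMA3A at 0.17 and SEMA3F at -0.86, and none of them met the rule. The SEMA3C transcript was 41.5% G or C, and of all kept genes within 1 percentage point of it 17.2% met the rule on the higher side. For SEMA3E, at 38.0%, 29.4% did, and for SEMA3F, at 60.1%, 7.03% met it on the lower side.

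SEMA3C, SEMA3E, SEMA3A and SEMA3D follow one another on chromosome 7 with few protein-coding genes between them. SEMA3D, the last of the run, had 8 reads in MHCC97H and 7 in MHCC97L. Of the 12 other genes between and within 5 genes of the run in RefSeq order, 6 were kept, and all 6 had positive log2 ratios, with a median of 0.78. Their transcripts were 37.0% to 43.6% G or C, a range where 88.2% of all kept genes had positive ratios, with a median of 0.61. Without the trend 4 of the 6 were positive, with a median of 0.17. As measured, PHTF2 (1.46) met the rule, GNAI1 (0.92), DMTF1 (0.89) and PCLO (0.67) did not, and KIAA1324L (0.13) and TMEM243 (0.08) were near equality. HGF, which lies between SEMA3C and SEMA3E and encodes the ligand of MET, had 0 reads in both libraries.

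**Figure D4:**
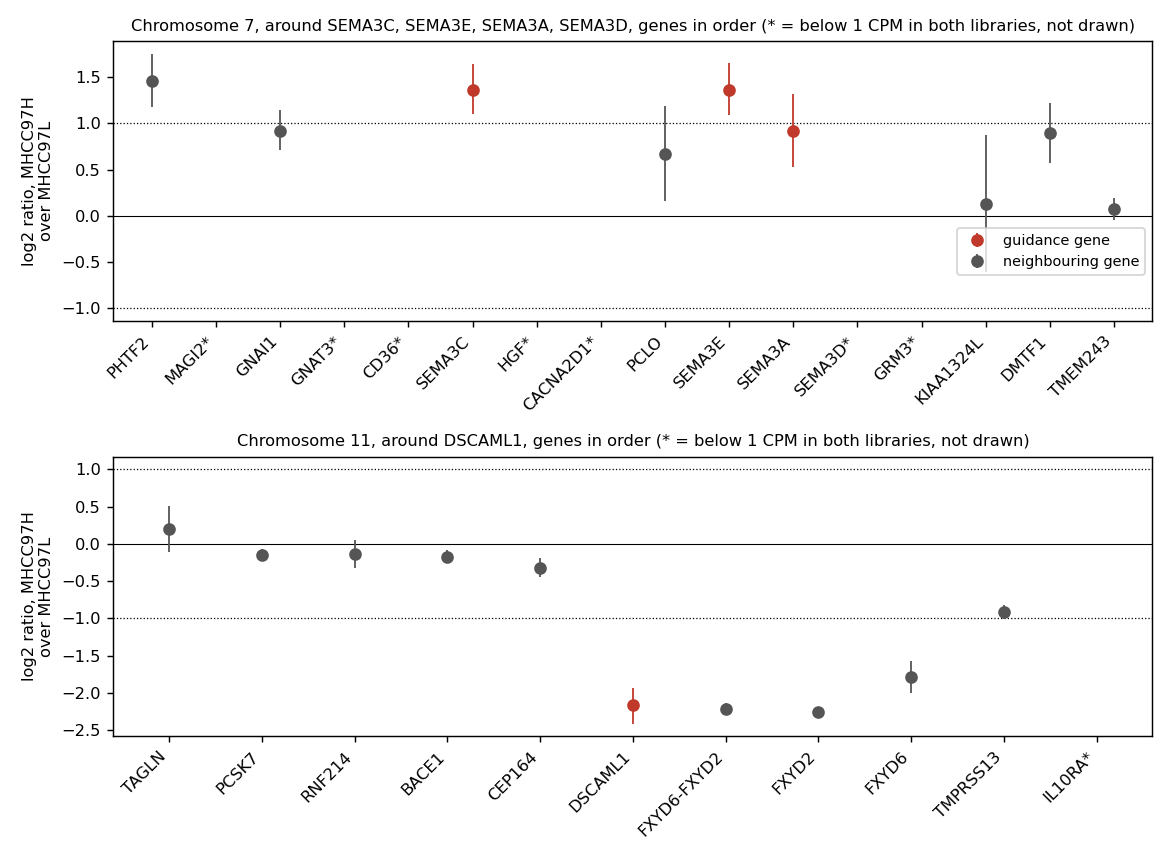
Log2 ratio of MHCC97H over MHCC97L with 95% counting intervals for protein-coding genes in RefSeq order around the SEMA3 run on chromosome 7 (top) and around DSCAML1 on chromosome 11 (bottom), guidance genes in red and neighbours in grey; genes below 1 CPM in both libraries are marked with an asterisk and not drawn. In the top panel no drawn gene lies below 0, and in the bottom panel DSCAML1 and the 3 FXYD entries beside it lie between -2.25 and -1.78.

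DSCAML1, an immunoglobulin-family adhesion protein related to the netrin receptor DSCAM and known from the nervous system, had the widest difference of the 44 genes. It had 187 reads in MHCC97H and 644 in MHCC97L, or 6.08 CPM in MHCC97H and 27.4 CPM in MHCC97L. The log2 ratio was -2.17 (95% counting interval -2.41 to -1.93). With the trend removed the value was -1.98 (-2.23 to -1.75). Of its 9 other kept neighbours on chromosome 11, 8 had negative ratios, where 65.6% of all kept genes in their GC range did. With the trend removed 6 of the 9 had. The size of these ratios differed between the 2 sides of the gene. The next 3 entries on one side, FXYD6-FXYD2, FXYD2 and FXYD6, which encode regulators of the sodium pump, had log2 ratios of -2.21, -2.25 and -1.78, and TMPRSS13 after them had -0.91. How reads were divided among the 3 FXYD entries, of which the first is named for both others, is not known. Without the trend the 3 entries stood at -1.61, -1.60 and -1.37. On the other side CEP164 (-0.32), BACE1 (-0.17), RNF214 (-0.14), PCSK7 (-0.15) and TAGLN (0.19) stayed near equality. Around EPHA4, whose transcript was 48.3% G or C, 5 of the 6 other kept genes had negative ratios with and without the trend. In their GC range, 41.6% to 65.3%, 53.9% of all kept genes had negative ratios. The A- and T-richest of them, FARSB (41.6%), stood at 0.90 as measured and 0.27 with the trend removed. Around UNC5B all 6 were negative as measured, where 58.8% of all kept genes in their GC range were, and 4 were with the trend removed.

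The Slit, netrin and UNC5 genes were expressed at low levels apart from NTN4. NTN4, a netrin found in basement membranes, had 1215 reads in MHCC97H and 647 in MHCC97L, or 39.5 CPM in MHCC97H and 27.5 CPM in MHCC97L (log2 ratio 0.52, interval 0.38 to 0.66, and 0.35 with the trend removed). NTN3 had 34 reads in MHCC97H and 50 in MHCC97L (-0.93, interval -1.62 to -0.29, and -0.34 with the trend removed). UNC5B, a netrin receptor of endothelial and other cells, had 46 reads in MHCC97H and 14 in MHCC97L, or 0.225 RPKM in MHCC97H and 0.0896 RPKM in MHCC97L, a 2.47-fold difference whose interval ran from 1.36 to 4.95. It lay close to the filter and was lost at a minimum of 5 CPM, but with a GC content of 59.7% its log2 ratio was larger with the trend removed (1.49) than as measured (1.30). ROBO3, a Robo family member that does not bind Slit in mammals, had 5.72 CPM in MHCC97H and 10.8 CPM in MHCC97L (-0.91, interval -1.20 to -0.63), and ROBO2, a Slit receptor, 2.41 CPM in MHCC97H and 2.76 CPM in MHCC97L (-0.20, interval -0.70 to 0.30).

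In all, 10 ligand and receptor pairs, chosen after the values were seen, could be read side by side. Binding within the pairs was not tested. EFNB2 and EPHB4 parted: the ligand's level was 0.944% of the receptor's in MHCC97H and 0.215% in MHCC97L, in RPKM. SEMA3C stood at 18.9% of the RPKM of PLXND1 in MHCC97H and 6.30% in MHCC97L, and SEMA3E at 9.77% in MHCC97H and 3.25% in MHCC97L. Such percentages depend on the transcript length used. With the longest transcript PLXND1 stood at 12.3 RPKM in MHCC97H in place of 22.8 RPKM, and SEMA3C at 3.16 RPKM in place of 4.30 RPKM. EFNA5 and EPHA4 had positive log2 ratios (0.87 and 1.27), and EFNA1 and EPHA2 negative ones (-0.85 and -0.35). Positive too were NTN4 and UNC5B (0.52 and 1.30) and SEMA3A and NRP1 (0.92 and 0.19), where the NRP1 interval included equality. SEMA4C and PLXNB2 were negative (-0.41 and -0.08), where the sign of PLXNB2 depended on the scaling. EFNB1 with EPHB3, and SEMA4D with PLXNB1, kept within 0.34 of equality on the log2 scale. With the trend removed EFNB2 and EPHB4 stood at 0.97 and -0.60, still apart, while SEMA3C and SEMA3E stood at 0.72 and 0.49 and PLXND1 at 0.02.

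**Figure D5:**
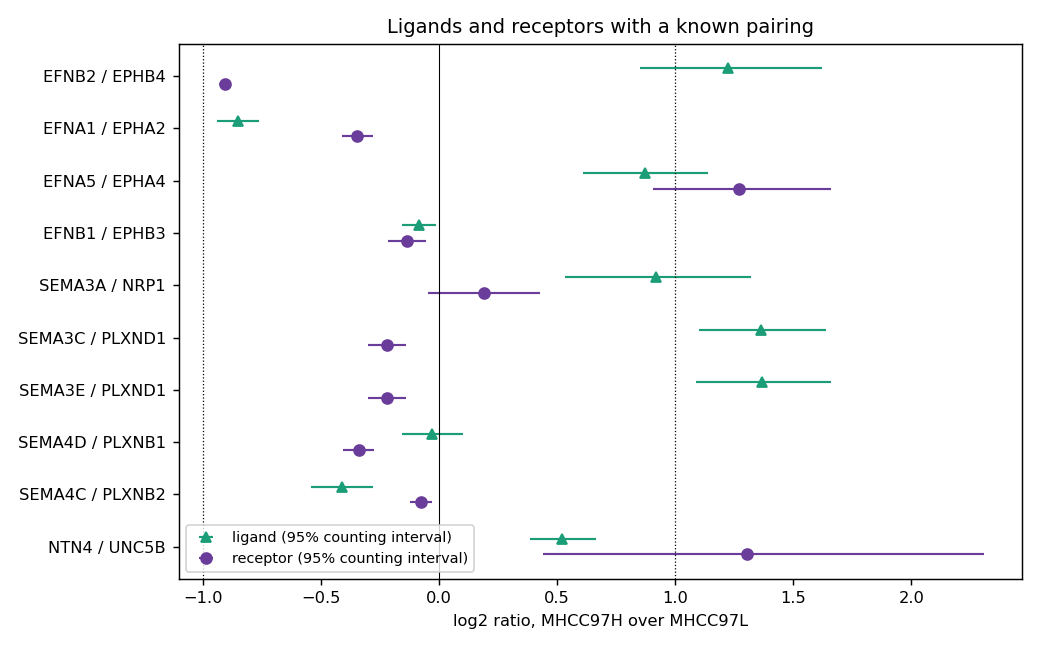
Log2 ratio of MHCC97H over MHCC97L with 95% counting intervals for 10 ligand (triangle) and receptor (circle) pairs. Dotted lines mark 2-fold. EFNB2 (1.22) and EPHB4 (-0.91) lie on opposite sides of 0, as do SEMA3C and SEMA3E against PLXND1.

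Genes that act with these receptors were taken from 3 lists of effectors, co-receptors and processing factors. Of 62 intracellular effectors 55 were kept, with a median log2 ratio of 0.12 (-0.02 with the trend removed). RASA1, a Ras GTPase-activating protein, was higher, at 19.2 CPM in MHCC97H against 8.12 CPM in MHCC97L (log2 ratio 1.24). FES, a tyrosine kinase linked to SEMA3A signalling, was lower, with 10 reads in MHCC97H and 81 in MHCC97L (-3.33, interval -4.52 to -2.45). FES had passed the 1 CPM filter only through MHCC97L, so its entry among the kept genes depended on the library where it is high. The most abundant effectors in both libraries were the actin-severing cofilin gene CFL1 (-0.27) and RHOA (0.12), followed by CAP1 (0.19) in MHCC97H and GIPC1 (-0.40) in MHCC97L. With the trend removed FES stayed lower (-2.96), VAV3, a guanine nucleotide exchange factor, became lower (-1.36), and RASA1 (0.52) no longer met the rule.

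Of 37 other guidance ligands, receptors and co-receptors 17 were kept, with a median of 0.04, and SLITRK6 alone met the rule, with 59 reads in MHCC97H and 19 in MHCC97L (1.23, and 0.36 with the trend removed). SLITRK6 had passed the 1 CPM filter only through MHCC97H, the library where it is high. RTN4 (-0.20) and SDC1 (0.09) were the most abundant in both libraries, followed in MHCC97H by MET (0.85), the hepatocyte growth factor receptor that can associate with plexin-B proteins, and in MHCC97L by the Nogo receptor gene RTN4R (-0.61). All 28 proteases, phosphatases and trafficking factors were kept, with a median of 0.22 (-0.09 with the trend removed). PTPN11, the phosphatase SHP2, had 94.5 CPM in MHCC97H and 33.6 CPM in MHCC97L (1.49), and the membrane protease gene ADAM9 35.7 CPM in MHCC97H and 8.84 CPM in MHCC97L (2.01). Both were higher with the trend removed as well, at 1.31 and 1.29. PTPRF (-0.27), FURIN (-0.40) and CLTC (0.74) were the most abundant of that list. Over the 3 lists 5 of 100 kept genes met the rule on the higher side and 1 on the lower, where the background shares were 7.06% and 4.65%.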

How the data were processed

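Poly(A)-selected RNA-seq libraries of MHCC97H and MHCC97L, 1 each, were used. The deposited table holds raw counts of reads per gene, whose columns carry the sample descriptions of the labels. The tools named for it are HISAT2 2.1.0, HTSeq 0.11.2 and bcl2fastq, with genome build hg19, per the submitters' processing notes. Not given in the sources used here were the strand setting, the annotation and how multi-mapping reads were counted.

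Genes with at least 1 CPM of total counts in at least 1 library were kept. Effective library sizes came from TMM in edgeR 4.0.16 under R 4.3.3 (factor 1.06 in MHCC97H and 0.942 in MHCC97L), and CPM, RPKM and log2 ratios (prior count 0.5) use them. Intervals are 95% exact Clopper-Pearson intervals of the split of a gene's reads. With 1 library per line nothing was tested across samples. The members, gene lists and rules were chosen with earlier results of these data known. Named genes were members meeting the size rule, with or without the trend, those of at least 10 CPM, the most abundant of each family and those with a log2 ratio between 0.8 and 1.2 in size. In the lists they were the genes meeting the rule and the 3 most abundant in either library, of which 1 gene is not reported here.

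Transcript length, GC content and exon overlaps came from GENCODE release 29, where all 70 members were matched, and promoter windows and gene order from RefSeq. Both use a build other than hg19. The trend was a lowess fit (span 0.2) on GC content and then log2 length over the 13854 kept genes with a value (95.0%). Alternatives covered scaling (with DESeq2 1.42.0 size factors), filter, prior count, fold threshold, an assumed coefficient of variation, the trend, transcript length and shared exons. Tables and intervals were made in Python 3.11.15 with statsmodels 0.14.6, scipy 1.17.1 and pandas 2.3.3, and the steps were tested on simulated data.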

Additional observations from a re-analysis of the deposited data

How the results depend on the processing

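Of the 44 kept guidance genes 5 were higher and 2 lower in MHCC97H, with a median log2 ratio of -0.21. Over all kept genes these counts were 1029 and 678, and over the pathway lists 5 and 1. Median-of-ratios factors, a prior count of 2 and an assumed coefficient of variation of 0.2 left the guidance gene counts within 1.5 times. With total counts 1 guidance gene was lower (SEMA3F, at -0.94, no longer met the rule), 1657 of all genes were higher, and 11 of the pathway lists were higher. EFNA5 (1.04) and SEMA3A (1.09) then met the rule. Without the filter 4 guidance genes were lower, ROBO1 and PLXNA4 being added, with 1443 of all genes and 2 of the pathway lists. At 5 CPM 225 of all genes and 0 of the pathway lists were lower, since FES left the genes tested. At 1.5-fold 11 guidance genes were lower, 2813 of all genes were higher and 2009 lower, and 19 of the pathway lists were higher and 10 lower. With an assumed coefficient of variation of 0.4, 0 guidance genes were higher and 1, DSCAML1, was lower, with 158 of all genes higher and 176 lower and 1 of the pathway lists higher. With the GC trend removed 3 guidance genes were higher and 1 lower, with a median of 0.020, 313 of all genes were higher, and the pathway lists had 2 higher and 2 lower. With the GC and length trend removed the guidance counts were 2 higher and 1 lower, 335 of all genes were higher, and the pathway lists had 2 higher and 2 lower. Leaving out the 11 kept guidance genes that share exons with another gene, a step chosen after seeing the data, left 3 higher, SEMA3C, SEMA3E and UNC5B. No named guidance gene changed sign while past the threshold under these alternatives. No paired analysis was possible because each line has 1 library. Leaving out a library leaves no comparison. Depth limits the 26 genes below 1 CPM, where a few reads decide the ratio.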
